A study of Mus musculus with 20 samples.

Results

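Galectins are small lectins that bind β-galactosides on glycoproteins and act both inside cells and after release, and *Lgals1*, *Lgals3*, *Lgals4*, *Lgals8* and *Lgals9* were read by symbol from a single-cell count table of the injured mouse spinal cord, so 5 of its 16003 genes are described here. For each gene, unique molecular identifiers (UMIs, each standing for 1 captured transcript) were summed over the cells of a cluster in a library and given as CPM, that is, how many of every 1000000 UMIs of those cells were of the gene. The table came from 6 libraries of spinal cord cells of female C57BL/6J mice, 8 to 10 weeks old, and each library pooled 3 to 4 mice. Mice ate vehicle chow or chow with 1200 ppm PLX5622, which inhibits the *Csf1* receptor on which microglia depend, from 2 weeks before surgery until the end point. Surgery was a sham laminectomy or a contusion at T9, and cords were taken at 7 or 28 days post-injury (dpi). The labels of each sham library name both days, so that the sham library of a diet was the reference at 7 and at 28 dpi, and comparisons with it share it. With 1 library per condition there was no replicate check, no test was run, and the 95% intervals given in brackets cover counting error only.

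Galectin-1 has a single carbohydrate-binding domain and works as a dimer, and it is known for dampening T cell responses. Galectin-3 joins such a domain to an N-terminal stretch through which it forms larger assemblies, and it is abundant in phagocytic macrophages. Galectin-4, galectin-8 and galectin-9 carry a pair of domains in tandem. Galectin-4 is typical of gut epithelium, galectin-8 can mark damaged endosomes and lysosomes, and galectin-9 is known as a ligand of Tim-3, which *Havcr2* encodes. In the GRCm38.p6 annotation, *Lgals1* lies on chromosome 15 from 78926725 to 78930465, *Lgals3* on chromosome 14 from 47373860 to 47386167, *Lgals4* on chromosome 7 from 28833122 to 28841710, *Lgals8* on chromosome 13 from 12439402 to 12464977 and *Lgals9* on chromosome 11 from 78962979 to 78984924.

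The start regions of *Lgals3*, whose level varied widely between cell types and libraries, and of *Lgals9*, whose range over libraries was narrow in microglia, MDMs and endothelial cells, are printed from RefSeq in the GRCm38.p6 build, 5′ to 3′ on the strand of the gene, as 250 bases before and 50 after the start. Capitals mark GGGCGG (GC box) or GAGGAA (PU.1 core) on either strand, so that the reverse complement of either is in capitals as well.
Lgals3, chr14:47373610-47373909, plus strand: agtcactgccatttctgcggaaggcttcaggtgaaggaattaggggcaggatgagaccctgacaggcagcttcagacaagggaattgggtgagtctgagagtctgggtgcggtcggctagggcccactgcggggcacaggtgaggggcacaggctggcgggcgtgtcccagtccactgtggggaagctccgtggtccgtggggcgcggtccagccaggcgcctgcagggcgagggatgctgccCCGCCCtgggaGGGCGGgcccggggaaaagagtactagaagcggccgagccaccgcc
Lgals9, chr11:78984875-78985174, minus strand: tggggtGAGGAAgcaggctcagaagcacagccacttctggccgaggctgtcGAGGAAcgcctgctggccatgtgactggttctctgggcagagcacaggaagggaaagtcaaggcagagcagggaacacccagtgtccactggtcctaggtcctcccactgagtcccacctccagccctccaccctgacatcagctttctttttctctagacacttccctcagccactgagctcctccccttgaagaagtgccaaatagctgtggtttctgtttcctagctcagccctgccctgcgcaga
The *Lgals3* region held 18 CpG dinucleotides and 2 GC boxes, while the median over all 32851 start regions was 7 CpG and 35.7% of them held a GC box. The *Lgals9* region held 4 CpG and 2 matches to GAGGAA, which 28.3% of all start regions contained. Neither held an AP-1 match (TGANTCA), which was found in 7.81% of all start regions. A match is a string of letters and not a measured site.

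Clusters were the 14 deposited by the authors, and each is named here after the cell type whose markers it held at their highest level, so that microglia stands for microglia-like cells and likewise for the others. The microglia cluster had 5 of its 6 markers highest and the cluster of monocyte-derived macrophages (MDMs) 4 of 6. Cluster 12 is left without a name because none of the pericyte markers, which matched it best, was among its leading genes. All 5 fibroblast markers were also highest in it, and *Lum*, *Dcn* and *Col3a1* of these were among its leading genes. *Elane* and *Mpo* of granulocyte precursors were among the leading genes of the proliferating cluster. The T cell cluster had *Gzma*, *Nkg7*, *Klre1* and *Xcl1*, genes of natural killer and cytotoxic cells, among its leading genes beside *Cd3d*, *Cd3e* and *Cd3g*. Libraries held 492 to 9846 cells with a median of 2268.5 to 5127 UMIs per cell, and 44 barcodes occurred in more than 1 library. MDM markers were found in every cluster of the injured libraries with at least 10 cells. Summed over 6 genes, they stood at 1113, 8170 and 4660 CPM in endothelial cells of the sham, 7 dpi and 28 dpi vehicle libraries, and at 43.2, 6258 and 5225 CPM in T cells. Values from cells with fewer than 3 UMIs of 12 myeloid genes are therefore set beside those of all cells where they bear on a result. The 12 genes were *C1qa*, *C1qb*, *C1qc*, *Tyrobp*, *Fcer1g*, *Ctss*, *Lyz2*, *Csf1r*, *Aif1*, *Cd68*, *Trem2* and *Laptm5*.

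The family differed most in where its UMIs lay. Over all cells, 42754 UMIs of *Lgals1* were found in 7685 cells, 96392 of *Lgals3* in 10504 cells, 9291 of *Lgals9* in 6057 cells, 3247 of *Lgals8* in 2735 cells and 112 of *Lgals4* in 106 cells. At 7 dpi under vehicle, MDMs were 40.6% of the cells and held 74.4% of the *Lgals1* UMIs and 81.2% of the *Lgals3* UMIs. In the sham vehicle library, MDMs were 10.3% of the cells and held 15.5% and 47.2%, and *Lgals1* was spread over monocyte or dendritic cells (22.0%), T cells (19.3%), proliferating cells (18.2%), MDMs and cluster 12 (13.8%). The level of *Lgals1* over all cells was 182, 827 and 213 CPM in the sham, 7 dpi and 28 dpi vehicle libraries and 138, 886 and 489 CPM in those of PLX5622-fed mice. That of *Lgals3* was 298, 1613 and 873 CPM under vehicle and 137, 1882 and 1045 CPM under PLX5622. Both genes were thus highest at 7 dpi under either diet.

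**Figure D1:**
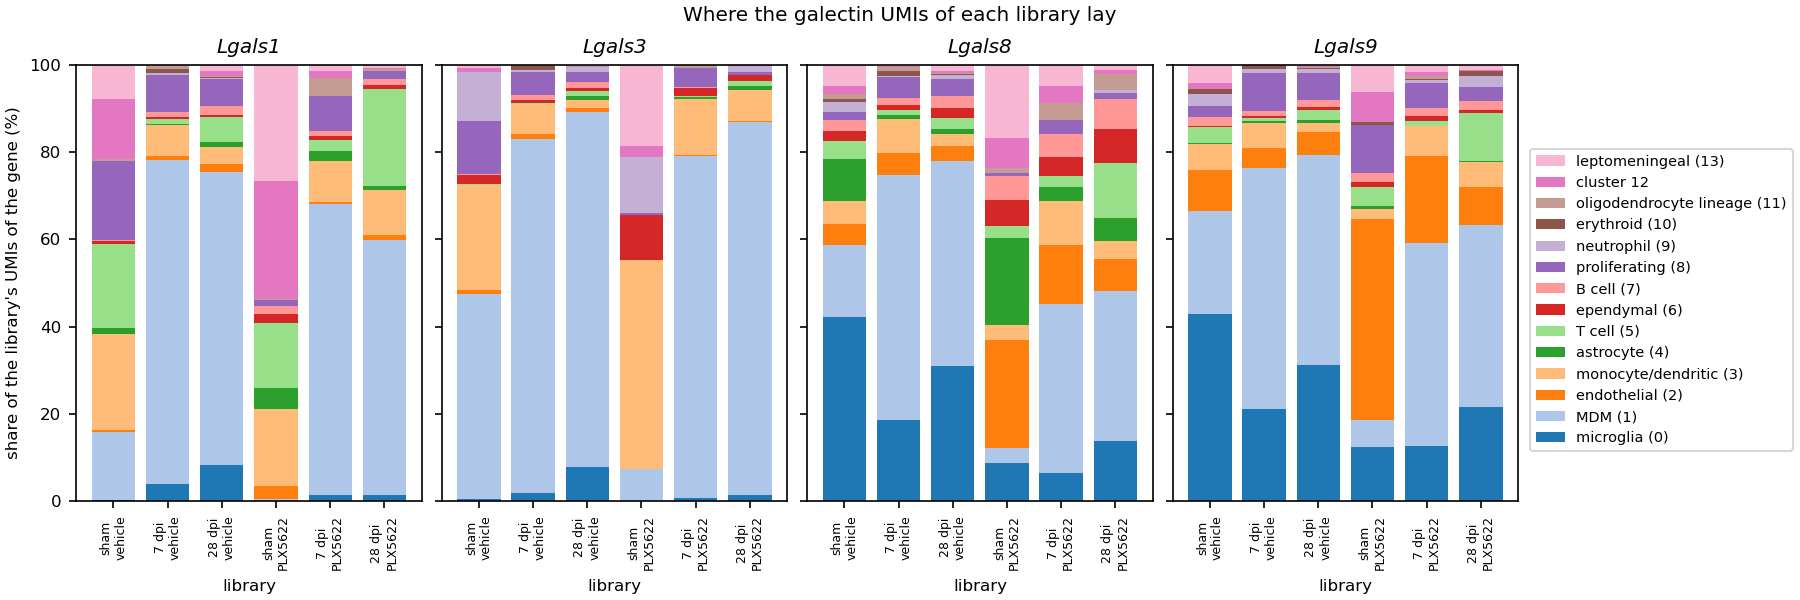
Share of each library's UMIs of a gene (%) by cluster, for 4 galectins (panels) and 6 libraries (bars, stacked by cluster). MDMs hold 58.6% to 74.4% of *Lgals1* and 78.6% to 85.6% of *Lgals3* UMIs in the injured libraries, while *Lgals8* and *Lgals9* UMIs are spread over more clusters.

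Ordered by the mean over libraries with at least 10 cells of the cluster, the clusters with the most *Lgals1* were proliferating cells (875 CPM), cluster 12 (816), T cells (790), monocyte or dendritic cells (784) and MDMs (766), and the fewest were found in microglia (70.1), ependymal cells (63.0) and neutrophils (60.1). For *Lgals3* the order was MDMs (2150 CPM), monocyte or dendritic cells (1784), proliferating cells (1007) and neutrophils (701), and microglia came last (106). For *Lgals9* endothelial cells (144 CPM) and microglia (132) came first and ependymal cells (15.1) near the end. For all 5 genes the range over libraries of each cluster overlapped that of the next in the order, so that no pair of neighbours was separated by more than the spread between libraries.

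**Figure D2:**
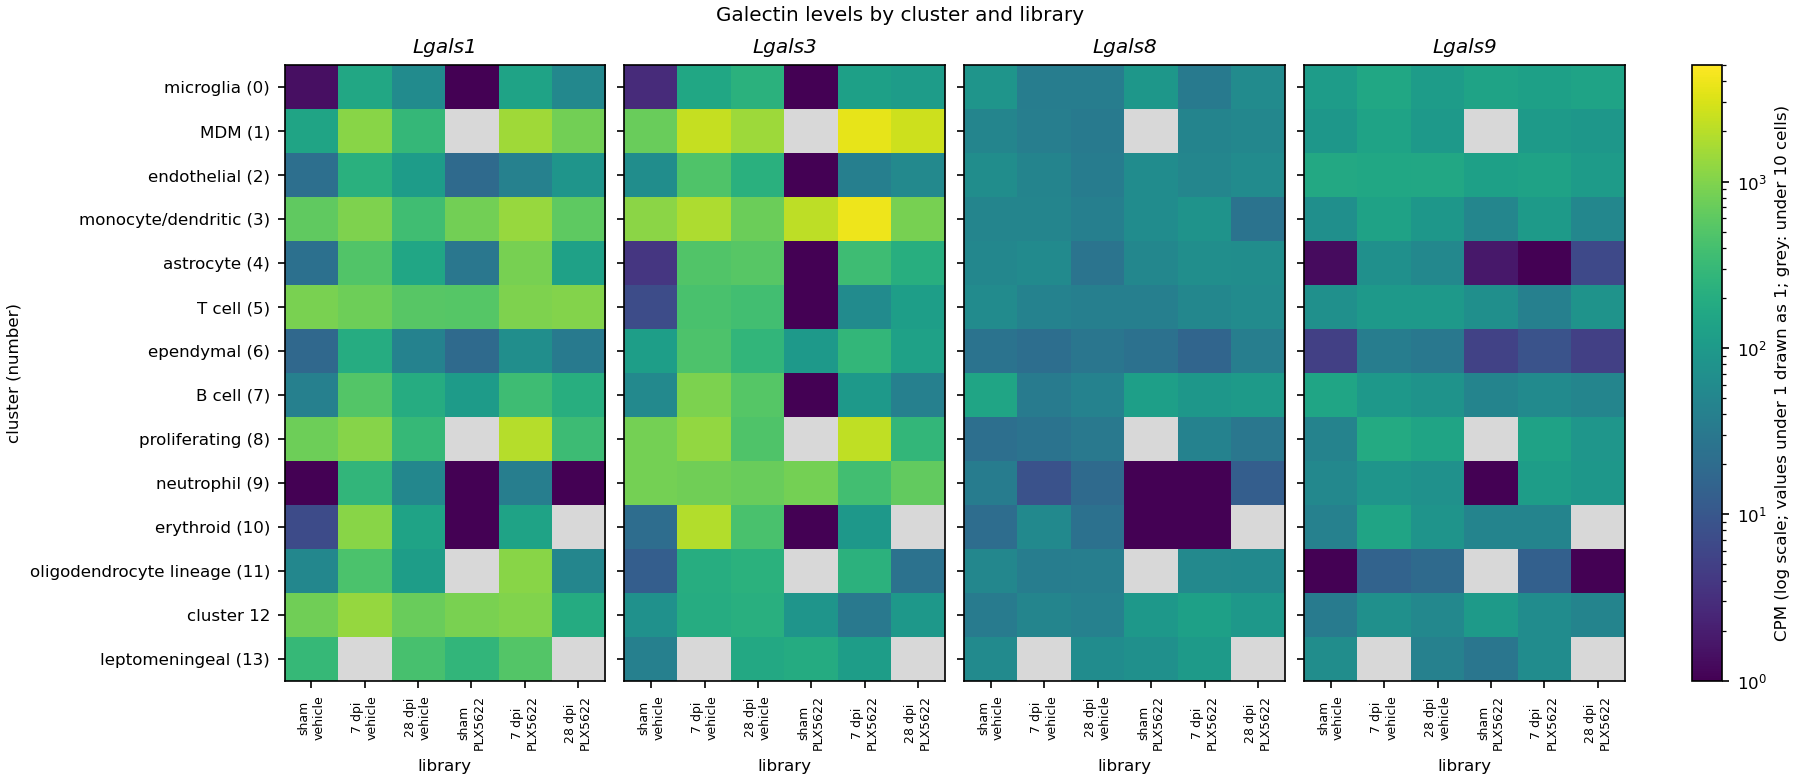
CPM of 4 galectins (panels, log colour scale, values under 1 drawn as 1) by cluster (rows) and library (columns), with pools under 10 cells in grey. *Lgals1* and *Lgals3* change by library and cell type, with *Lgals3* between 714 and 3685 CPM in MDMs and *Lgals1* between 530 and 1023 CPM in T cells, while *Lgals9* stays between 108 and 168 CPM in endothelial cells.

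MDMs, the macrophages that enter the cord from blood, held most UMIs of both genes in the injured libraries. *Lgals1* in MDMs stood at 143 CPM in the sham vehicle library, 1104 at 7 dpi and 288 at 28 dpi, and at 1473 and 823 CPM at 7 and 28 dpi under PLX5622. The 7 dpi library was highest under either diet. The log2 ratio of 7 dpi to sham was 2.95 [2.75 to 3.15], that of 28 dpi to sham 1.01 [0.80 to 1.22], and that of 28 to 7 dpi -1.94 [-1.99 to -1.89]. *Lgals3* in MDMs stood at 714, 2354 and 1429 CPM under vehicle and at 3685 and 2571 CPM under PLX5622 at 7 and 28 dpi. It was likewise highest at 7 dpi, with a smaller gap between 7 and 28 dpi. Its log2 ratio was 1.72 [1.63 to 1.81] for 7 dpi to sham, 1.00 [0.91 to 1.09] for 28 dpi to sham and -0.72 [-0.74 to -0.70] for 28 to 7 dpi. The sham library of PLX5622-fed mice had only 9 MDMs and is not used for ratios in MDMs.

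The sham MDM cluster was not made up like the injured ones. Of its 185 cells, 157 had a UMI of *P2ry12*, *Tmem119* or *Siglech*, all markers of microglia, against 1315 of 3023 at 7 dpi and 1509 of 3313 at 28 dpi under vehicle. Cells of the cluster with such a UMI had 104, 911 and 258 CPM of *Lgals1* in sham, 7 dpi and 28 dpi, and cells without it had 358, 1275 and 319 CPM. The same comparison for *Lgals3* gave 467, 1540 and 1154 CPM with a UMI and 2053, 3076 and 1722 CPM without. In all 5 libraries compared, cells without a microglia marker UMI had the higher level of both genes. Taken over these cells alone, the log2 ratio of 7 dpi to sham was 1.83 [1.51 to 2.17] for *Lgals1* and 0.58 [0.45 to 0.72] for *Lgals3*, and that of 28 dpi to sham was below 0, at -0.17 [-0.49 to 0.18] and -0.25 [-0.39 to -0.12]. The sham value then rests on 28 cells, and this split was chosen after the data were seen.

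**Figure D3:**
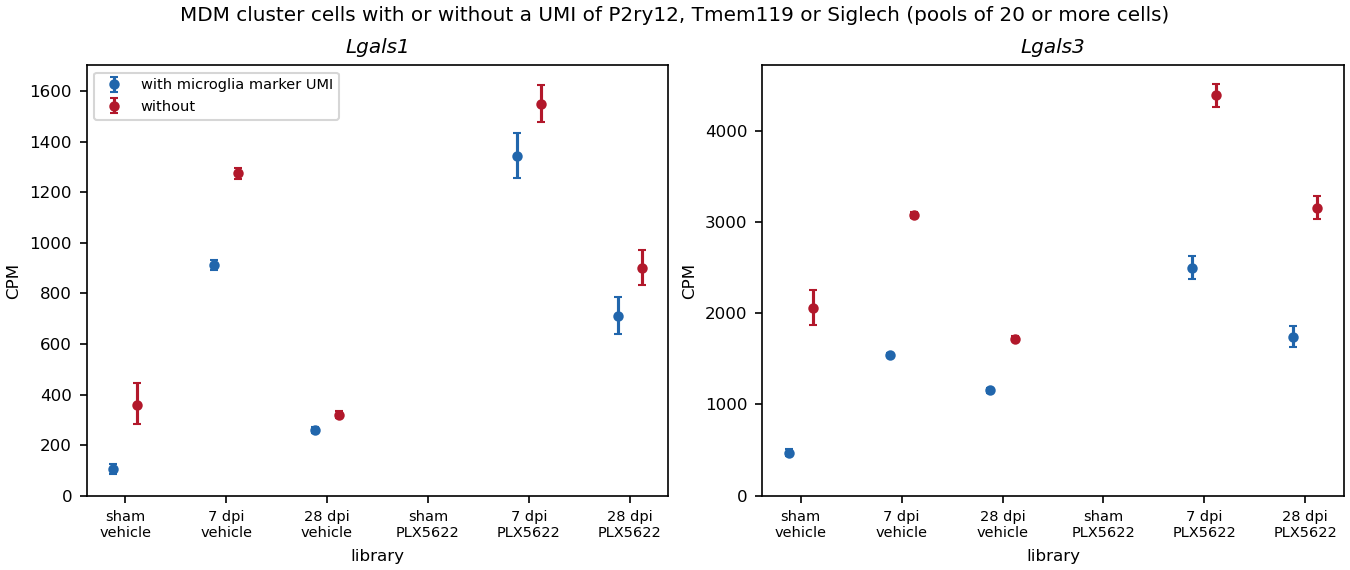
CPM of *Lgals1* and *Lgals3* (panels) by library in MDM cluster cells with (blue) or without (red) a UMI of *P2ry12*, *Tmem119* or *Siglech*; bars are 95% Poisson intervals, and pools under 20 cells are not drawn. Cells without such a UMI are higher in each library, and in sham they hold 2053 CPM of *Lgals3* against 467 CPM.

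Monocyte or dendritic cells, which hold the precursors of MDMs, had both genes in the sham library too. *Lgals1* stood there at 632, 953 and 367 CPM in the sham, 7 dpi and 28 dpi vehicle libraries and at 802, 1350 and 597 CPM under PLX5622. *Lgals3* stood at 1130, 1771 and 746 CPM under vehicle and at 2144, 4032 and 879 CPM under PLX5622, where the sham value rests on 14 cells and the 7 dpi value on 29 cells. The 7 dpi library was highest and the 28 dpi library below sham for both genes and diets. Under vehicle, the log2 ratio of 28 to 7 dpi was -1.38 for *Lgals1* and -1.25 for *Lgals3*.

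The T cell cluster and cluster 12 carried *Lgals1* without injury. In T cells it stood at 911, 762 and 546 CPM in the sham, 7 dpi and 28 dpi vehicle libraries and at 530, 965 and 1023 CPM under PLX5622. With each cell thinned to 1000 UMIs drawn at random, and shallower cells left out (6 of 67 T cells and 126 of 674 microglia in the sham vehicle library), 52.5% [39.3 to 65.4] of sham vehicle T cells had a UMI of *Lgals1*, and 70.1% did before thinning. Sham microglia, at a median of 3178 UMIs per cell, had one in 0.365% [0.0442 to 1.31] of cells after thinning. In T cells with fewer than 3 myeloid UMIs the level in the sham vehicle library was 243 CPM [121 to 435], from 13 of the 67 cells. The 7 dpi level was 820 CPM [536 to 1202] and the 28 dpi level 471 CPM [348 to 623], from 26 and 97 cells. The sham level in these cells was thus below that of all T cells. The part of myeloid RNA in it, and that of which cells the filter kept, was not tested. In cluster 12 *Lgals1* stood at 783, 1296 and 723 CPM under vehicle and at 910, 994 and 189 CPM under PLX5622, the last from 4 UMIs in 12 cells.

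Neutrophils, short-lived phagocytes of the blood, showed *Lgals3* at a like level in the 3 vehicle libraries, with 853 CPM in sham, 786 at 7 dpi and 706 at 28 dpi. Under PLX5622 it was 844, 377 and 641 CPM, the first 2 from 11 and 12 cells. After thinning, 55.2%, 52.8% and 52.7% of vehicle neutrophils had a UMI of *Lgals3* in sham, 7 dpi and 28 dpi. The interval of the log2 ratio of 7 dpi to sham, -0.12 [-0.36 to 0.12], included 0.

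Ependymal cells, which line the central canal, also had *Lgals3* in sham cords, where MDM markers were sparse. It stood at 117, 467 and 270 CPM under vehicle and at 99.8, 281 and 132 CPM under PLX5622. In sham, 34.2% of the 76 vehicle cells and 40.4% of the 47 PLX5622 cells had a UMI before thinning, against 0.890% of sham vehicle microglia. After thinning the shares were 6.67% [1.85 to 16.2] and 6.98% [1.46 to 19.1] in ependymal cells and 0 of 548 in microglia, at medians of 4444.5, 6145 and 3178 UMIs per cell before it, and 0 of 548 allows, at 3 counts of the total, a share of up to 0.547%. Left with fewer than 3 myeloid UMIs, ependymal cells had 224 and 219 CPM at 7 and 28 dpi under vehicle and 154 and 103 CPM under PLX5622. *Gpnmb*, *Ms4a7* and *Cd36* were at 0 in sham ependymal cells of either diet, and MDM markers summed to 117 and 64.8 CPM there.

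Cells of the oligodendrocyte lineage had 51.3 CPM of *Lgals1* in the sham vehicle library (4 UMIs), 442 at 7 dpi and 114 at 28 dpi. At 7 dpi under PLX5622 the value was 1089 CPM, from 17 of 28 cells, with 36.9% of the UMIs in 1 cell. Cells with fewer than 3 myeloid UMIs gave 515 CPM at 7 dpi under vehicle, on 46 of 107 cells. For each 100 UMIs of MDM markers this cluster had 8.09 [6.82 to 9.52] UMIs of *Lgals1* at 7 dpi under vehicle, while MDMs had 3.08 [3.04 to 3.12]. The high value of *Lgals1* in astrocytes at 7 dpi under PLX5622, 876 CPM, came from 1 cell that held 81 of the 92 UMIs.

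Microglia, the resident macrophages of the cord, are the cells that the study set out to remove. In the sham vehicle library *Lgals1* and *Lgals3* were hardly detected in them, with 3 and 6 UMIs in 674 cells, or 1.43 CPM [0.295 to 4.18] and 2.86 CPM [1.05 to 6.23]. *Lgals1* stood at 167 CPM at 7 dpi and 60.8 at 28 dpi under vehicle. *Lgals3* stood at 160 and 233 CPM. In the sham PLX5622 library 29 microglia had no UMI of either gene, and at 7 and 28 dpi under PLX5622 the values were 138 and 53.5 CPM for *Lgals1* and 125 and 112 CPM for *Lgals3*. Under vehicle the log2 ratio of 7 dpi to sham was 6.86 [5.31 to 9.14] for *Lgals1* and 5.81 [4.68 to 7.26] for *Lgals3*. From 7 to 28 dpi *Lgals1* was lower, with a log2 ratio of -1.45 [-1.61 to -1.30], and *Lgals3* higher, with 0.54 [0.43 to 0.65]. *Lgals3* at 28 dpi stood 6.35 [5.22 to 7.80] above sham on the log2 scale.

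**Figure D4:**
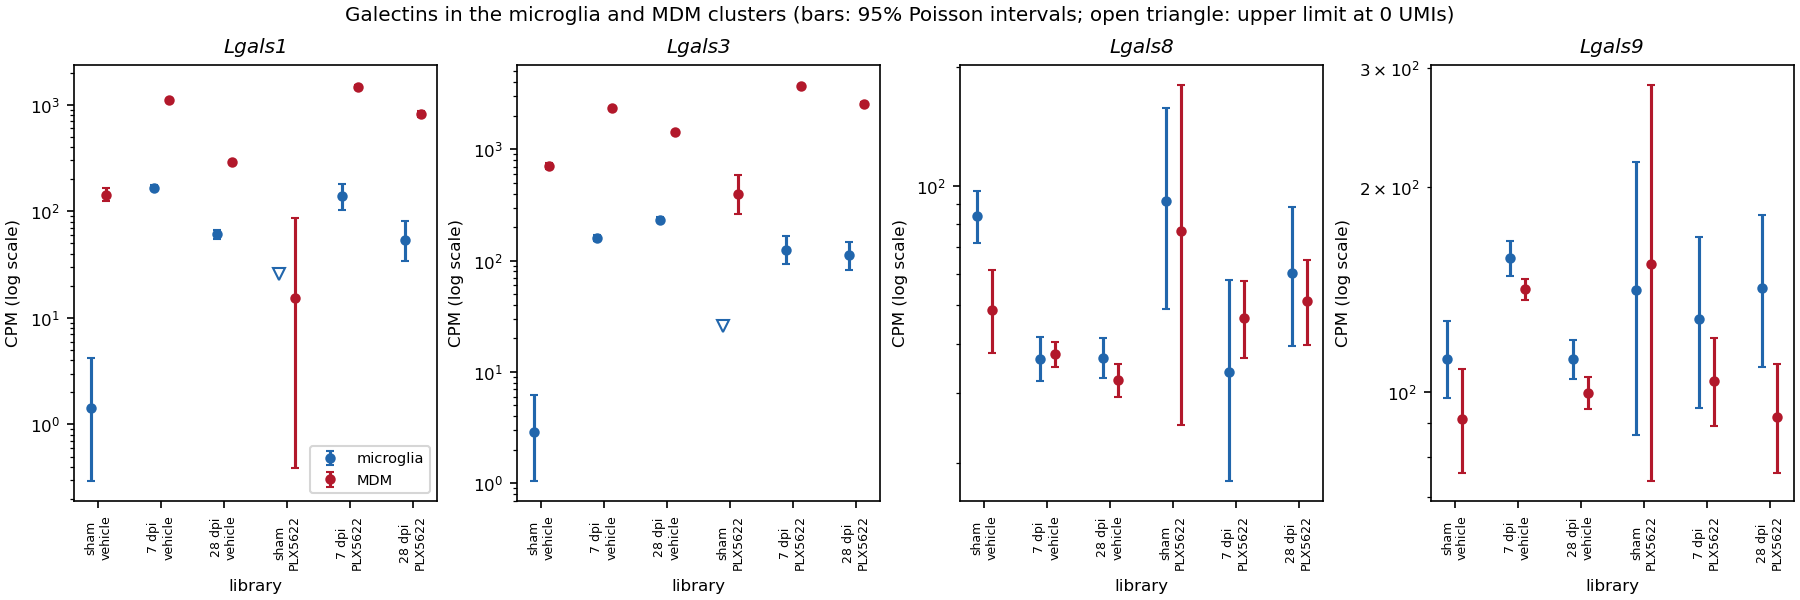
CPM (log scale, axes differ between panels) of 4 galectins in microglia (blue) and MDMs (red) by library, with 95% Poisson intervals as bars and the upper limit at 0 UMIs as an open triangle. *Lgals1* and *Lgals3* are higher in MDMs than in microglia in each injured library, and both are near 1 to 3 CPM in sham vehicle microglia, while *Lgals8* and *Lgals9* in MDMs lie between 0.58 and 1.37 times their level in microglia.

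Cells of other kinds also had UMIs of both genes in the injured libraries, and their shares are set beside those of microglia. Thinned to 1000 UMIs, 11.4% [10.0 to 12.9] of microglia at 7 dpi under vehicle had a UMI of *Lgals1*, and so did 10.0% [6.87 to 14.0] of endothelial cells and 12.0% [6.87 to 19.0] of neutrophils. For *Lgals3* the share was 13.9% [12.4 to 15.5] in microglia and 12.7% [9.15 to 17.0] in endothelial cells. Before thinning the shares in microglia were 26.8% and 30.5%, at a median of 2902.5 UMIs per cell against 2409 in endothelial cells. Thinning left out 170 of 2154 microglia and 52 of 351 endothelial cells. The microglial shares at 7 dpi were thus at the level seen in these cells of other lineages, and whether they reflect expression by microglia was not tested. At 28 dpi the *Lgals1* share was 5.31% [4.55 to 6.17] in microglia and 7.26% [4.61 to 10.8] in endothelial cells. The *Lgals3* share at 28 dpi was 17.8% [16.5 to 19.2] in microglia, above 8.91% [5.95 to 12.7] in endothelial cells but below 21.1% in astrocytes and 22.3% in ependymal cells. MDM markers, which microglia can also express, summed to 65.8, 4307 and 4248 CPM in sham, 7 dpi and 28 dpi vehicle microglia. For each 100 of those UMIs at 7 dpi, microglia had 3.87 UMIs of *Lgals1* and 3.72 of *Lgals3*, endothelial cells 2.77 and 5.82, astrocytes 3.92 and 3.92, and MDMs 3.08 and 6.57. The part of RNA from MDMs in the microglial values was not tested. Among microglia with a UMI of *P2ry12*, *Tmem119* or *Siglech*, *Lgals1* stood at 0.957, 158 and 57.4 CPM and *Lgals3* at 2.39, 142 and 197 CPM.

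**Figure D5:**
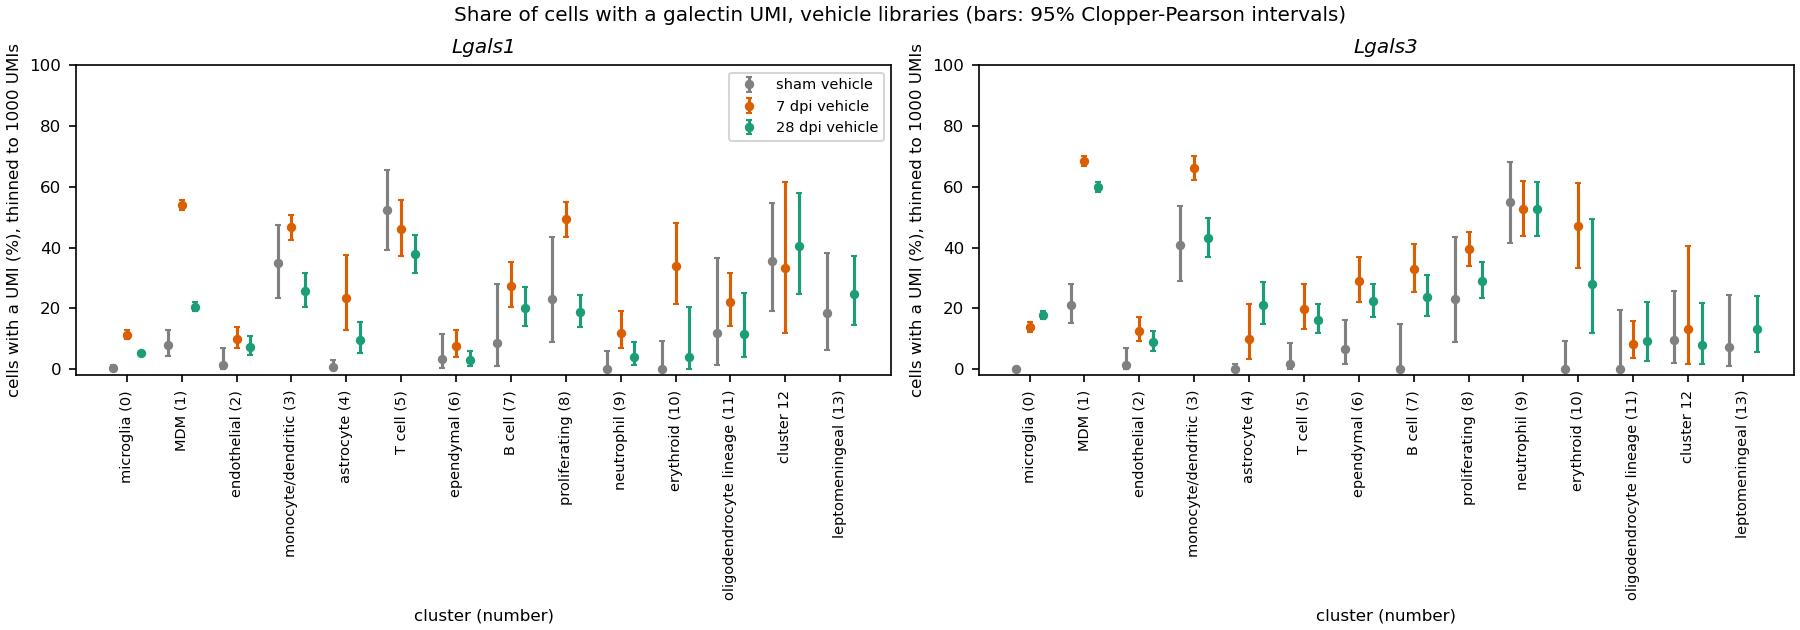
Share of cells (%) with a UMI of *Lgals1* or *Lgals3* (panels) after thinning to 1000 UMIs, by cluster, in the sham (grey), 7 dpi (orange) and 28 dpi (green) vehicle libraries, with 95% Clopper-Pearson intervals; pools under 10 cells are not drawn. Microglia at 7 dpi, at 11.4% and 13.9%, lie beside endothelial cells at 10.0% and 12.7%, and MDMs reach 54.0% and 68.5%.

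MDMs stood above microglia for both genes in each library that had them. Under vehicle the ratio was 6.62 for *Lgals1* and 14.7 for *Lgals3* at 7 dpi, and 4.73 and 6.12 at 28 dpi. Under PLX5622 it was 10.7 and 29.4 at 7 dpi, and at 28 dpi 15.4 and 23.0. In thinned MDMs at 7 dpi under vehicle, 76.8% [74.7 to 78.8] of cells with a UMI of *Lgals1* also had one of *Lgals3*, against 58.8% [56.1 to 61.4] of cells without. In microglia the same shares were 19.0% [14.1 to 24.8] and 13.2% [11.6 to 14.9].

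By CPM, MDMs of the PLX5622 libraries stood above MDMs of the vehicle library of the same time for both genes. At 7 dpi the log2 ratio of PLX5622 to vehicle was 0.42 [0.36 to 0.48] for *Lgals1* and 0.65 [0.61 to 0.68] for *Lgals3*. At 28 dpi it was 1.52 [1.42 to 1.61] for *Lgals1* and 0.85 [0.79 to 0.90] for *Lgals3*. *Lgals1* at 28 dpi was past 2-fold higher, as were 2.33% of the 7635 genes with 100 UMIs or more over the pair of libraries. At 7 dpi the PLX5622 value rests on 100 cells with a median of 15945 UMIs, against 5777 in vehicle MDMs. After thinning, 56.6% [46.2 to 66.5] of these PLX5622 cells and 54.0% [52.2 to 55.8] of vehicle cells had a UMI of *Lgals1*, and these intervals overlapped, while for *Lgals3* the shares were 81.8% [72.8 to 88.9] and 68.5% [66.8 to 70.2]. For each 100 UMIs of MDM markers the 7 dpi order was the other way, with 2.29 of *Lgals1* under PLX5622 and 3.08 under vehicle, and 5.73 and 6.57 of *Lgals3*. The markers themselves were higher under PLX5622 at 7 dpi, with 112416 of 1746444 UMIs against 711566 of 19876321 under vehicle. This order thus also depends on the markers. At 28 dpi PLX5622 was higher per 100 marker UMIs as well, with 3.06 and 1.38 of *Lgals1* and 9.56 and 6.87 of *Lgals3*. Microglia marker UMIs made up 912 CPM of the 28 dpi MDM cluster under vehicle and 740 CPM under PLX5622. In cells without such a UMI, *Lgals1* was 319 CPM under vehicle and 901 under PLX5622, and *Lgals3* was 1722 and 3151 CPM. In T cells, where MDM markers were far lower under PLX5622, *Lgals3* went the other way. It stood at 383 CPM under vehicle and 117 under PLX5622 at 28 dpi, where MDM markers summed to 5225 and 224 CPM. In microglia at 28 dpi *Lgals3* was also lower under PLX5622, with a log2 ratio of -1.06 [-1.51 to -0.65] that was past 2-fold lower, as were 5.87% of 6359 genes. It was -0.46 after thinning and -0.35 with each cell weighted alike, both under 2-fold. MDM markers summed to 4248 CPM in 28 dpi microglia under vehicle and 875 CPM under PLX5622, and their part in this ratio was not tested.

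By CPM, *Lgals9* varied little in microglia, MDMs and endothelial cells. In microglia it stood at 112, 157 and 112 CPM in the sham, 7 dpi and 28 dpi vehicle libraries and at 141, 128 and 142 CPM under PLX5622. In MDMs it stood at 91.0, 141 and 99.5 CPM under vehicle and at 104 and 91.7 CPM at 7 and 28 dpi under PLX5622. In endothelial cells it stood at 168, 162 and 166 CPM under vehicle and at 126, 136 and 108 CPM under PLX5622. Proliferating cells varied more, from 44.7 CPM in sham to 181 at 7 dpi and 146 at 28 dpi under vehicle. The log2 ratio of 7 dpi to sham was 0.49 [0.29 to 0.70] in microglia and 0.64 [0.38 to 0.90] in MDMs, and that of 28 to 7 dpi was -0.49 [-0.62 to -0.36] and -0.51 [-0.60 to -0.41]. After edgeR's TMM scaling, which sets the bulk of genes level between libraries, the ratio of 7 dpi to sham in microglia was 1.04 [0.84 to 1.25]. It was then past 2-fold, so that its size depends on the scaling. The median over all 6623 genes tested in microglia was -0.54 before that scaling. Sham astrocytes and ependymal cells had next to none, with 1.28 and 5.07 CPM under vehicle. After thinning, 9.85% of sham vehicle microglia and 0 of 60 ependymal cells had a UMI, and 0 of 60 allows, at 3 counts of the total, a share of up to 5.00%.

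*Lgals8* was lower in microglia of injured cords. It stood at 84.0 CPM [72.0 to 97.3] in the sham vehicle library. The 7 dpi level was 36.7 CPM [32.3 to 41.6], the 28 dpi level 37.0 CPM [32.8 to 41.4], and the levels under PLX5622 were 91.8, 33.9 and 60.5 CPM, from 13, 13 and 26 UMIs. The log2 ratio of 7 dpi to sham under vehicle was -1.19 [-1.48 to -0.91]. It was -0.64 after TMM scaling and thus under 2-fold. In MDMs *Lgals8* stood at 48.7, 37.7 and 32.4 CPM under vehicle. Its mean over libraries was highest in B cells (91.6 CPM) and lowest in neutrophils (12.7 CPM).

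*Lgals4* was near the limit of detection, with 5 to 28 UMIs per library. Astrocytes and ependymal cells had 24 UMIs each, microglia 11 and MDMs 8. In the sham PLX5622 library astrocytes had 13 UMIs, or 22.2 CPM [11.8 to 37.9], and sham vehicle astrocytes 6 UMIs, or 7.70 CPM [2.82 to 16.7]. No ratio between conditions in microglia or MDMs is given, as both sides were at 5 UMIs or fewer.

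A 2-fold limit was applied to genes whose UMIs in the compared pair of libraries summed to 100 or more, which 4 of the 5 members did, all but *Lgals4*. In microglia at 7 dpi against sham, *Lgals1* and *Lgals3* were past 2-fold higher, as were 4.02% of the 6623 genes tested, and *Lgals8* was past 2-fold lower, as were 21.5%. At 28 dpi against sham *Lgals1* and *Lgals3* were again past 2-fold higher, against 3.62% of genes, and from 7 to 28 dpi *Lgals1* was past 2-fold lower, against 0.323% of genes. In MDMs *Lgals1* and *Lgals3* were past 2-fold higher at 7 dpi, against 4.09% of 8303 genes, and just past it at 28 dpi, at 2.01-fold and 2.00-fold, against 1.53% of genes. *Lgals1* was past 2-fold lower from 7 to 28 dpi in MDMs, against 3.60% of genes.

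Glycoproteins that galectins bind and enzymes that build their glycans were read from lists, again at 7 dpi against sham under vehicle. Among galectin-3 partners, 6 of 8 were tested in microglia, with a median of -0.10. *Lgals3bp*, which encodes a secreted galectin-3 binding protein, was past 2-fold higher, against 4.02% of all genes. It stood at 211, 524 and 530 CPM in sham, 7 dpi and 28 dpi. *Tlr4*, a receptor for bacterial lipopolysaccharide, was past 2-fold lower, against 21.5% of all genes, at 52.0, 17.6 and 21.6 CPM. In MDMs *Lgals3bp* went the other way, at 560, 352 and 693 CPM, and none of 7 partners tested was past 2-fold (median -0.43). Among galectin-9 partners, 2 of 5 tested in microglia were past 2-fold lower, against 21.5% of all genes (median 0.55). These were *Havcr2*, the gene of Tim-3, at 219, 101 and 102 CPM, and *Igf1r*, the receptor of insulin-like growth factor, at 46.3, 19.8 and 29.8 CPM. Both were under 2-fold after TMM scaling, at log2 ratios of -0.57 and -0.67. *Cd44*, *P4hb* and *Pdcd1* of the same list were then past 2-fold higher, at 1.55, 1.10 and 1.31. That scaling adds 0.55 to every log2 ratio of 7 dpi to sham in microglia. The share of all genes past 2-fold was not counted after it, so these calls have no background. In MDMs *Pdcd1*, which encodes PD-1, was the 1 of 5 tested past 2-fold lower, against 11.0% of genes, with 38.8 CPM in sham, 6.24 at 7 dpi and 26.1 at 28 dpi (median over the list -0.70).

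Of the galectin-8 partners, only *Alcam*, an adhesion molecule, could be tested in microglia. It was past 2-fold higher there, against 4.02% of all genes, with 2.39, 15.1 and 34.9 CPM. In MDMs 2 of 3 were tested, with none past 2-fold (median 0.55). *Pdpn*, which encodes podoplanin, was past 2-fold lower from 7 to 28 dpi in MDMs, against 3.60% of all genes. It stood at 10.6, 19.7 and 1.37 CPM in sham, 7 dpi and 28 dpi under vehicle. Of galectin-1 partners, 3 of 7 were tested in either cell type and none was past 2-fold (median -0.49 in microglia and -0.01 in MDMs). Over all libraries, *Cd2*, *Cd7* and *Spn* were highest in T cells, at 235, 162 and 160 CPM. *Kdr* and *Nrp1* were highest in endothelial cells, at 185 and 493 CPM. *Ptprc* was highest in neutrophils, at 753 CPM against 748 in T cells, and *Itgb1* in cluster 12, at 475 CPM.

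Of the 12 enzymes that build or trim N-glycans and O-glycans, 10 were tested in microglia (median -0.91). Of these, 1 was past 2-fold higher, against 4.02% of all genes, and 5 were past 2-fold lower, against 21.5%. *Glb1*, the lysosomal β-galactosidase, was the higher one, just past the limit at a log2 ratio of 1.00, with 66.3, 133 and 112 CPM. *Mgat1* and *Mgat2*, which start the branches of complex N-glycans, stood at 101, 35.5 and 48.4 CPM and at 151, 52.0 and 67.0 CPM. *Mgat4a*, *St3gal6* and *Gcnt1* were the other 3 lower ones. After TMM scaling *St3gal6*, at -1.18, was the 1 of these 5 still past 2-fold lower. In MDMs all 12 were tested and 2, *Mgat4a* and *St3gal6*, were past 2-fold lower, against 11.0% of all genes (median -0.36), and *Mgat4a*, at -0.77, was under 2-fold after TMM scaling. Of the 7 genes of the response to damaged lysosomes, 5 were tested in microglia and 6 in MDMs, and none was past 2-fold (median -0.04 and 0.13). The medians over all genes tested, -0.54 in microglia and -0.25 in MDMs, stand beside each of these values.

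The genes most like each member were taken by Pearson's r of log2(CPM + 1) over 75 pools, each a cluster in a library with at least 50000 UMIs, among 9451 genes. For *Lgals1* these were *Nme2* (0.79), *Atp5e* (0.77), *2010107E04Rik* (0.74), *Atp5d* (0.74) and *Cox7c* (0.73). For *Lgals3* they were *Lyz2* (0.77), *Cstb* (0.76), *Lilrb4* (0.75), *Apoc2* (0.74) and *Wfdc17* (0.73). For *Lgals8* they were *Mettl23* (0.75), *Slc50a1* (0.73), *Foxn3* (0.71), *Srpr* (0.71) and *Bccip* (0.71), and for *Lgals9* *Wasf2* (0.82), *Il10rb* (0.81), *Tgfbr2* (0.80), *Bst2* (0.80) and *Vamp8* (0.79). *Lgals1* and *Lgals3* had an r of 0.38 with each other. The pools share libraries and differ in depth, so these values are a description.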

How the data were processed

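For the single cells, the authors mapped reads to an Ensembl mouse reference and counted UMIs with Cell Ranger, then filtered and clustered in Seurat. What they deposited are UMI counts, per library and as 1 table of 21016 cells and 16003 genes with a cluster number per cell, from which 254 barcodes under 200 genes are missing. That table keeps 716 cells above the stated limit of 3000 genes, and lists at 0 a gene seen in under 3 cells of a library, which touched no value of the 5 members. Total counts per library ran from 2606149 to 35694246. Bulk RNA-seq (14 samples) was not analysed here.

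The 5 members, the gene lists, the 86 markers and the settings were chosen with earlier results of these data known. Poisson intervals of CPM, conditional binomial intervals of ratios and Clopper-Pearson intervals of shares are exact. A count of 0 was set to a floor of 3 counts in ratios. Since Cell Ranger UMIs are deduplicated molecules, intervals cover counting error only. Genes named are the members, their listed partners and enzymes, and the 5 most like each member. Tried in place of plain totals were size factors of DESeq2, TMM factors of edgeR, equal weight per cell, thinning to 1000 UMIs, totals lacking ribosomal protein genes, a minimum of 500 genes, removal of 483 Scrublet doublets (otherwise kept), and subsets by microglia or myeloid marker UMIs. Ratios and their intervals were tried on simulated Poisson counts, which have no spread between libraries beyond counting. Thinning was checked on the total it left per cell, and the other steps were not tried on simulated counts. Scaling factors came from DESeq2 1.42.0 and edgeR 4.0.16 in R 4.3.3, intervals from scipy 1.17.1 in Python 3.11.15, and doublet scores from scanpy 1.11.5.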

Additional observations from a re-analysis of the deposited data

Results flagged for a closer look

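In 3 cases the intervals of a log2 ratio under vehicle and under PLX5622 lay on opposite sides of 0, and the difference itself was not tested. The cases were picked by this rule from a scan of the 5 members over most clusters. How many pairs of ratios were scanned was not counted. *Lgals1* in endothelial cells from 7 to 28 dpi gave -1.02 [-1.36 to -0.69] under vehicle and 1.02 [0.09 to 1.94] under PLX5622, and among cells with fewer than 3 myeloid UMIs 0.35 [-0.60 to 1.31] and -0.11 [-1.49 to 1.11]. *Lgals1* in T cells gave -0.26 [-0.51 to -0.01] under vehicle and 0.86 [0.37 to 1.37] under PLX5622 for 7 dpi to sham. For 28 dpi to sham in T cells it gave -0.74 [-0.98 to -0.50] under vehicle and 0.95 [0.54 to 1.39] under PLX5622, and the PLX5622 sham and 7 dpi values rest on 21 and 23 cells. Among T cells with fewer than 3 myeloid UMIs, the vehicle levels of *Lgals1* at 7 and 28 dpi were above that in sham. Both vehicle directions were thus reversed there, though the intervals of the sham and 28 dpi levels overlapped. The filter left out most T cells of each vehicle library, so that a different set of cells was compared. *Lgals3* in proliferating cells differed in sign between times instead, where the log2 ratio of PLX5622 to vehicle was 0.81 [0.65 to 0.97] at 7 dpi. At 28 dpi it was -0.73 [-1.32 to -0.19], and the PLX5622 values came from 10 and 16 cells.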

How the results depend on the processing

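All 8 log2 ratios that were set as comparisons kept their direction under each alternative that gave a value. In microglia, thinning to 1000 UMIs gave 5.29 for *Lgals1* at 7 dpi to sham and -1.23 for 28 to 7 dpi, and *Lgals9* at 7 dpi to sham was 1.04 with TMM and 1.07 with DESeq2 factors. In MDMs at 7 dpi to sham, TMM, DESeq2 factors, each cell alike, thinning and cells without microglia marker UMIs gave 3.25, 3.24, 3.66, 3.58 and 1.83 for *Lgals1* and 2.02, 2.01, 2.34, 2.40 and 0.58 for *Lgals3*. *Lgals3* in MDMs at 28 dpi under PLX5622 to vehicle was 0.78 with TMM, 0.62 with each cell alike and 0.65 after thinning. Among other ratios, leaving out MDMs with microglia marker UMIs reversed 28 dpi to sham for *Lgals1* (-0.17) and *Lgals3* (-0.25). Keeping endothelial cells with fewer than 3 myeloid UMIs reversed 28 to 7 dpi for *Lgals1* under vehicle (0.35) and PLX5622 (-0.11) and for *Lgals3* under vehicle (0.28). These reversals are of ratios past 2-fold. The vehicle ratios of *Lgals1* in T cells at 7 and 28 dpi to sham, both under 2-fold, also changed direction among cells with fewer than 3 myeloid UMIs. What caused these moves was not tested. In 9 cases an alternative left a pool under 5 cells or at 0 UMIs and gave no value. No paired analysis was possible because each condition was 1 library. Depth limits *Lgals4* throughout, *Lgals1* and *Lgals3* in sham microglia, and most clusters of the PLX5622 libraries, and without replicate libraries the intervals say nothing of the spread between mice.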

Other observations

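Other genes of the family were sparse. *Lgals7* had 174 UMIs, of which 149 were in 1 monocyte or dendritic cell of the sham vehicle library that held 14508 UMIs in all. *Lgals2* had 22 UMIs and *Grifin* 4, the latter all in 4 separate cells. *Lgalsl*, which encodes a galectin-like protein, had 716 UMIs in 593 cells, with the 3 highest cells all endothelial.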
